A study of Mus musculus with 4 samples.

Results

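The 6 genes described here encode the microglial receptor TREM2 and the proteins that carry its signal: the receptor gene Trem2, the adaptor genes Tyrobp and Hcst, and the enzyme genes Syk, Plcg2 and Inpp5d. They were chosen by symbol from the 32285 genes in the count matrices, and all 6 were present and passed the filter on low counts. Their RNA was counted in single cells from the brains of 2 PRMT1FL mice and 2 PRMT1Cx3cr1-KO mice, with 1 droplet library per mouse. All mice carried floxed Prmt1 alleles on a C57BL/6 background; in PRMT1Cx3cr1-KO mice a tamoxifen-inducible CreERT under the Cx3cr1 promoter deletes them, in microglia and in other cells that use this promoter, whereas the labels call the PRMT1FL mice wild type. All 4 mice ate 0.2% cuprizone (CPZ), a copper chelator that strips myelin, for 5 wk, and the brain cells were sorted for CD11b and CD45. The labels place the diet at 5 to 6 wk of age. The methods place tamoxifen, given to both genotypes, at that age and the diet 2 wk later. The comparison asks whether loss of PRMT1, an arginine methyltransferase, in microglia changes the RNA of these genes during demyelination. The sources do not say that PRMT1FL mice carry CreERT, so its effect cannot be told apart from that of PRMT1 loss.

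TREM2 is a surface receptor of microglia that binds lipids, lipoproteins and myelin debris, and it has no signalling domain of its own. It pairs with DAP12, the product of Tyrobp, whose immunoreceptor tyrosine-based activation motif (ITAM) recruits the kinase SYK, and with DAP10, the product of Hcst, which recruits phosphoinositide 3-kinase (PI3K). SYK activates phospholipase C gamma 2, encoded by Plcg2, and the phosphatase SHIP1, encoded by Inpp5d, removes the lipid that PI3K makes and so restrains the pathway. In demyelination TREM2 is known for the clearance of myelin and for the passage of microglia into the disease-associated state.

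In the GENCODE annotation of mm10, Trem2 (ENSMUSG00000023992) lies at chr17:48346401-48354147 on the plus strand, among the other genes of its family. Tyrobp (ENSMUSG00000030579, chr7:30413760-30417585, plus strand) and Hcst (ENSMUSG00000064109, chr7:30417712-30419854, minus strand) are neighbours whose 3′ ends face each other across 126 bases. Syk (ENSMUSG00000021457) lies at chr13:52583173-52648792, Plcg2 (ENSMUSG00000034330) at chr8:117498291-117635142 and Inpp5d (ENSMUSG00000026288) at chr1:87620312-87720507, all on the plus strand. RefSeq (GRCm38.p6) promoters were matched for 5 of the 6 genes, all but Tyrobp. The 250 bases before the start are shown for 3 of them: Trem2, which had the largest difference between genotypes among the 6 genes, Inpp5d, whose difference in homeostatic-like cells was tested apart from that in other microglia and called with all 4 mice, and Hcst, whose level across states ran opposite to that of Inpp5d. Capitals mark AGGAAGT, a sequence that ETS factors such as PU.1 can bind, searched on both strands along with the E-box CACGTG; the motifs share no overlapping match here.
Trem2: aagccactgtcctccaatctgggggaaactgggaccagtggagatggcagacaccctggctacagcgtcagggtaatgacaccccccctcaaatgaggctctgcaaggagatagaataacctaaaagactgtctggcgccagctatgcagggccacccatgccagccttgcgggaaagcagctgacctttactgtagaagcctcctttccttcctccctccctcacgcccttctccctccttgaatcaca
Hcst: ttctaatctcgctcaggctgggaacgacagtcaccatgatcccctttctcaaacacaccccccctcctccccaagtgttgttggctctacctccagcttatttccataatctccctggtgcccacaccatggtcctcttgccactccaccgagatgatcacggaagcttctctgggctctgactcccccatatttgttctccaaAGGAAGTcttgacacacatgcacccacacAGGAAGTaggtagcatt
Inpp5d: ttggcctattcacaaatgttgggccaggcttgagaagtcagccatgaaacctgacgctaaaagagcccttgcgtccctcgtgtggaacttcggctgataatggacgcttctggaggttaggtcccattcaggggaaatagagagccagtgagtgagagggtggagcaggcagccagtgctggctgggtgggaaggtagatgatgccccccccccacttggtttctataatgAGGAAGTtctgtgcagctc
The windows lie at chr17:48346151-48346400 (plus strand), chr7:30419855-30420104 (minus strand) and chr1:87620062-87620311 (plus strand), and each is written in the direction of its gene. AGGAAGT occurred 2 times before Hcst, with first bases 46 and 17 bases before the start, and once, 19 bases before the start, in front of Inpp5d. It was not among the letters of the Trem2 window. Of 32851 promoter windows of this length, 7.69% held AGGAAGT and 6.02% held CACGTG, which occurred in the Plcg2 window and not in the 3 shown.

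The PRMT1FL libraries held 91306165 and 76943248 unique molecular identifiers (UMIs, which count each captured RNA molecule once) and the PRMT1Cx3cr1-KO libraries 85874289 and 99559644. Of 41365 barcodes, 40869 passed the filters, and 38297 (93.7%) fell in 7 microglial clusters, with 7553 to 10759 microglia per mouse at a median of 6364 to 7308 UMIs. Pairs of libraries shared 31 to 46 barcodes, out of 8284 to 11554 barcodes per library. The targeted gene, Prmt1, was at 91.0 and 84.0 CPM (a gene's UMIs divided by the summed UMIs and scaled to the same total in every sum) in PRMT1FL microglia and at 70.4 and 70.8 CPM in PRMT1Cx3cr1-KO microglia, a log2 difference of -0.38 (SE 0.07, edgeR adjusted p = 0.0797). The tags read the 3′ end, and whether they cover the deleted exons is not given in the sources used here, so Prmt1 is a weak check of the labels. Other cells' markers moved with the genotype in the microglial sums: haemoglobin genes summed to 94.1 to 241 CPM in PRMT1FL mice and to 0.02 to 0.06 CPM in PRMT1Cx3cr1-KO mice, and 7 border macrophage genes to 33.1 to 33.3 CPM and 61.6 to 164 CPM. Their part in the results was not tested.

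Trem2 was lower in microglia of PRMT1Cx3cr1-KO mice, by a log2 difference that missed the threshold over all genes. It stood at 2263 and 2714 CPM in the PRMT1FL mice and at 2145 and 1699 CPM in the PRMT1Cx3cr1-KO mice. Both values of the PRMT1Cx3cr1-KO mice lay below both of the PRMT1FL mice, but the lower PRMT1FL mouse and the higher PRMT1Cx3cr1-KO mouse were close, and mice of the same genotype differed 1.20-fold and 1.26-fold. The log2 difference was -0.44 (SE 0.15, 95% interval -0.81 to -0.07), which is 0.736 of the PRMT1FL level, with an unadjusted p of 0.0263 and an adjusted p of 0.191 by edgeR's quasi-likelihood test over 13803 genes. Of these genes, 0.493% were called at an adjusted p under 0.05, and none of the 6 signalling genes was among them. CPM that did not overlap between genotypes occurred in 56.0% of the genes tested, with the PRMT1Cx3cr1-KO mice below in 17.5%, and an unadjusted p under 0.05 in 19.7%. Summed counts cannot tell fewer expressing cells from less RNA per cell.

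The call for Trem2 changed with 3 settings. DESeq2 gave -0.44 with an adjusted p of 0.0474, where it called 5.21% of genes. EdgeR without the filter on low counts gave -0.44 with an adjusted p of 0.000412, where 8.67% of genes were called. The SE of Trem2 was 0.09 in that fit against 0.15 in the main one, so its p leans more on the spread of other genes. Without the first PRMT1Cx3cr1-KO mouse the log2 difference was -0.64 with an adjusted p of 0.00178, and 18.6% of genes were called. Without the second it was -0.26 (adjusted p = 0.183), and without the second PRMT1FL mouse -0.30 (adjusted p = 0.678), both by edgeR. The value was negative under all 15 alternatives, between -0.64 and -0.26, with adjusted p-values from 0.000412 to 0.678.

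**Figure D1:**
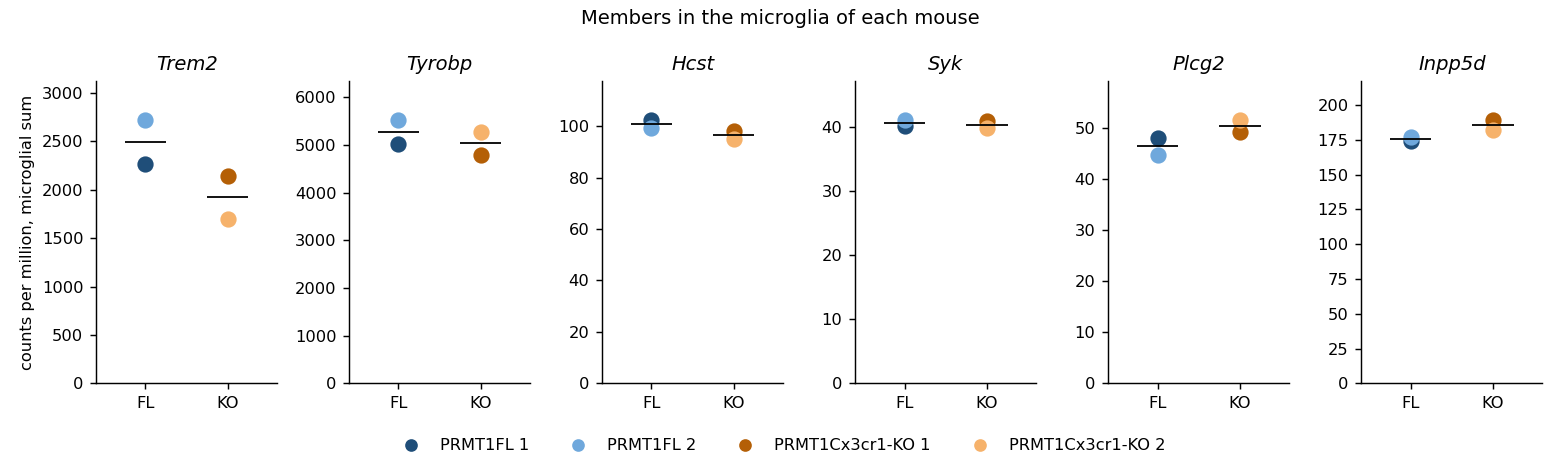
Each point is the CPM of a gene in the summed microglia of 1 mouse (FL, PRMT1FL; KO, PRMT1Cx3cr1-KO), the bar is the mean of 2 mice, and every vertical axis starts at 0. Trem2 stands at 2263 and 2714 CPM in FL and at 2145 and 1699 CPM in KO, whereas the values for Tyrobp and Syk overlap between genotypes.

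Neither adaptor gene was called. Tyrobp, the adaptor shared by many ITAM-coupled receptors of myeloid cells, was at 5029 and 5517 CPM in PRMT1FL mice and at 4794 and 5284 CPM in PRMT1Cx3cr1-KO mice, so the genotypes overlapped. Its log2 difference was -0.14 (SE 0.09, 95% interval -0.36 to 0.08, edgeR adjusted p = 0.435). Hcst was at 102 and 99.3 CPM in PRMT1FL mice and at 98.1 and 95.04 CPM in PRMT1Cx3cr1-KO mice. Its values did not overlap, and the log2 difference was -0.13 (SE 0.07, 95% interval -0.29 to 0.03, edgeR adjusted p = 0.318). Set against its adaptor within each mouse, Trem2 had 0.450 and 0.492 UMIs for each UMI of Tyrobp in PRMT1FL mice. The ratio was 0.447 in the first PRMT1Cx3cr1-KO mouse, next to the lower PRMT1FL value, and 0.322 in the second.

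The enzyme genes differed by under 0.1 on the log2 scale. Syk, the kinase that docks on the phosphorylated ITAM, was at 40.3 and 41.1 CPM in PRMT1FL mice and at 41.0 and 39.9 CPM in PRMT1Cx3cr1-KO mice (log2 difference -0.08, 95% interval -0.24 to 0.08). Plcg2, which cleaves a membrane phospholipid to raise calcium, was at 48.0 and 44.7 CPM in PRMT1FL mice and at 49.1 and 51.4 CPM in PRMT1Cx3cr1-KO mice (log2 difference 0.04, 95% interval -0.12 to 0.20). Inpp5d was at 174 and 177 CPM in PRMT1FL mice and at 189 and 182 CPM in PRMT1Cx3cr1-KO mice (log2 difference 0.01, 95% interval -0.16 to 0.17). Plcg2 and Inpp5d had higher CPM in both PRMT1Cx3cr1-KO mice, as did 38.5% of genes tested. The trimmed mean of M-values (TMM) scaling in the test takes out a shift of the median gene of 0.07, and both genes then lay near 0. Their adjusted p-values by edgeR were 0.755 and 0.966, and that of Syk was 0.527. The intervals leave room for differences of up to 0.24 in size for these 3 genes.

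**Figure D2:**
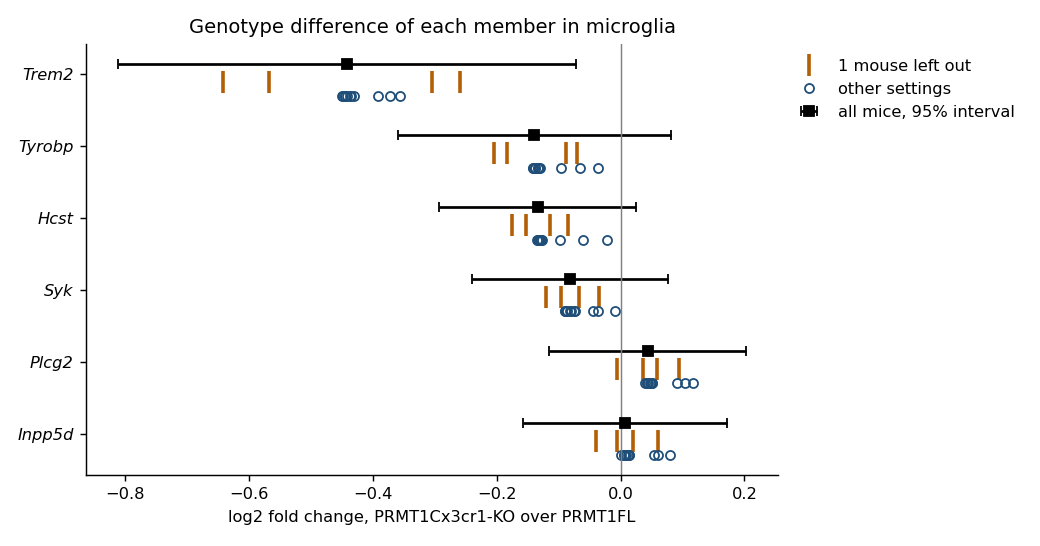
Log2 fold change of each gene, PRMT1Cx3cr1-KO over PRMT1FL, in summed microglia; squares with bars are the estimate from all mice with its 95% interval, vertical ticks leave out 1 mouse each and open circles are the other settings. The Trem2 interval runs from -0.81 to -0.07, and the intervals of the other 5 genes cover 0.

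The share of microglia with a UMI showed the same order of mice for Trem2. With each cell thinned to 1000 UMIs, 86.2% and 90.5% of microglia in PRMT1FL mice against 84.3% and 78.3% in PRMT1Cx3cr1-KO mice held a Trem2 UMI. The difference of means was -7.05 percentage points, and an exact two-sided permutation test over the 4 mice gave 0.333, the smallest p that this design allows. Without thinning the shares were 98.1% to 99.3%, so at full depth nearly every microglial cell held the RNA. In astrocyte-like cells, which should lack Trem2, the thinned share was 7.30% to 16%, at a median depth before thinning of 1703 to 3068 UMIs against 6364 to 7308 in microglia. Thinned shares were 95.9% to 97.4% for Tyrobp and 16.4% to 18.2% for Inpp5d, and in astrocyte-like cells 11.7% to 28.0% and 0% to 8%. Hcst, Syk and Plcg2 were found in 7.97% to 9.28%, 3.85% to 4.50% and 4.19% to 4.81% of thinned microglia. In each case the genotypes overlapped or differed by under 1 percentage point in their means.

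Among single microglia thinned to 1000 UMIs, Trem2 varied little more than counting alone would give, with a variance over mean of 1.20 to 1.24 in the 4 mice. Tyrobp gave 1.94 to 2.05 at a mean of 4.68 to 5.27 UMIs per cell. This ratio can rise with the mean, so it does not compare the 2 genes. Mean Trem2 UMIs per thinned cell were 2.19 and 2.62 in PRMT1FL mice against 2.08 and 1.67 in PRMT1Cx3cr1-KO mice. Cells with a UMI of Itgax, a gene of activated microglia chosen after the values were seen, held 2.25 and 2.81 Trem2 UMIs in PRMT1FL mice against 2.36 and 1.79 in PRMT1Cx3cr1-KO mice. Cells without one held 2.18 and 2.59 and then 2.06 and 1.67, so the second PRMT1Cx3cr1-KO mouse was the lowest on both sides, and the first lay above a PRMT1FL mouse among cells with Itgax.

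The levels of the 6 genes differed across microglial states in 3 patterns. The states came from clustering, and the values are a description with no test. The homeostatic-like cluster (leading genes Crybb1, Camk2n1 and Txnip, with P2ry12 also among its first 10) held 7387 cells. The Ptgs2 cluster (Ptgs2, Dusp2 and Tnfsf9) held 10868, the Baiap2l2 cluster (Baiap2l2, Gm26917 and Etl4) 9603 and the Stmn1 cluster (Stmn1, Tmsb10 and Gm1673) 7518. The mitotic-like cluster (Hmmr, Mki67 and Cenpf) held 1547 cells and the interferon-like cluster (Iigp1, Rsad2 and Ifit3b) 672. The homeostatic-like cluster had a median log2 ratio to all other cells of 1.181 over 8 homeostatic markers. Over 4 markers of the paper's cluster E the ratio was 1.655, with P2ry12 and Sall1 in both lists. The paper reports cluster E gained and its homeostatic cluster D lost in PRMT1Cx3cr1-KO microglia. A change of mix inside the homeostatic-like cluster was not tested. A cluster led by Cd38, Clec12a and Ms4a7 held 702 cells, 29 and 15 in PRMT1FL mice against 109 and 549 in PRMT1Cx3cr1-KO mice, and was counted as microglia but not tested alone. Its log2 ratio to all other cells passed 1 for 5 of 7 border macrophage markers and 4 of 4 markers of the paper's microglial cluster B1. In a finer clustering (leiden resolution 0.8), a cluster led by Mrc1 had Clec12a, Mndal and Ms4a7 among its first 10 genes. That cluster was not counted as microglia.

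Trem2 was the most even of the 6 genes over states. Its mean over mice was highest in the Baiap2l2 cluster (2392 CPM) and lowest in the homeostatic-like cluster (1812 CPM), a ratio of 1.32, and in every one of the 6 states the second PRMT1FL mouse was highest and the second PRMT1Cx3cr1-KO mouse lowest. Tyrobp ran from 2934 to 3438 CPM in homeostatic-like cells to 7438 to 8114 CPM in the Stmn1 cluster, a ratio of means of 2.41. Hcst followed the same order at the ends, from 49.7 to 52.0 CPM up to 128 to 152 CPM, a ratio of 2.79. For both adaptor genes these extremes did not overlap in any mouse.

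The enzymes ran the other way. Of the tested states, homeostatic-like cells held most Inpp5d, at 269 to 373 CPM. The Stmn1 cluster held least, at 57.8 to 63.7 CPM, a ratio of means of 5.30. Syk ran from 62.1 to 76.1 CPM down to 15.5 to 19.6 CPM, a ratio of 3.89, and Plcg2 from 57.0 to 68.8 CPM down to 35.0 to 41.9 CPM, a ratio of 1.67. In the other 4 states the ranges of Inpp5d over mice lay between 160 and 196 CPM and overlapped each other. Homeostatic-like cells and the Stmn1 cluster are both shallow, with medians of 3939 and 4441 UMIs per cell against 9050.5 to 13375 in the other tested states. The enzymes and both adaptor genes were thus highest and lowest in the tested clusters of least depth, and Trem2 was lowest in 1 of them. A still shallower cluster of 1350 cells (median 851 UMIs) was set aside and not tested. Its median log2 ratio to all other cells over the 8 homeostatic markers was 1.045. Inpp5d was at 427 to 610 CPM there, above its range in homeostatic-like cells.

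**Figure D3:**
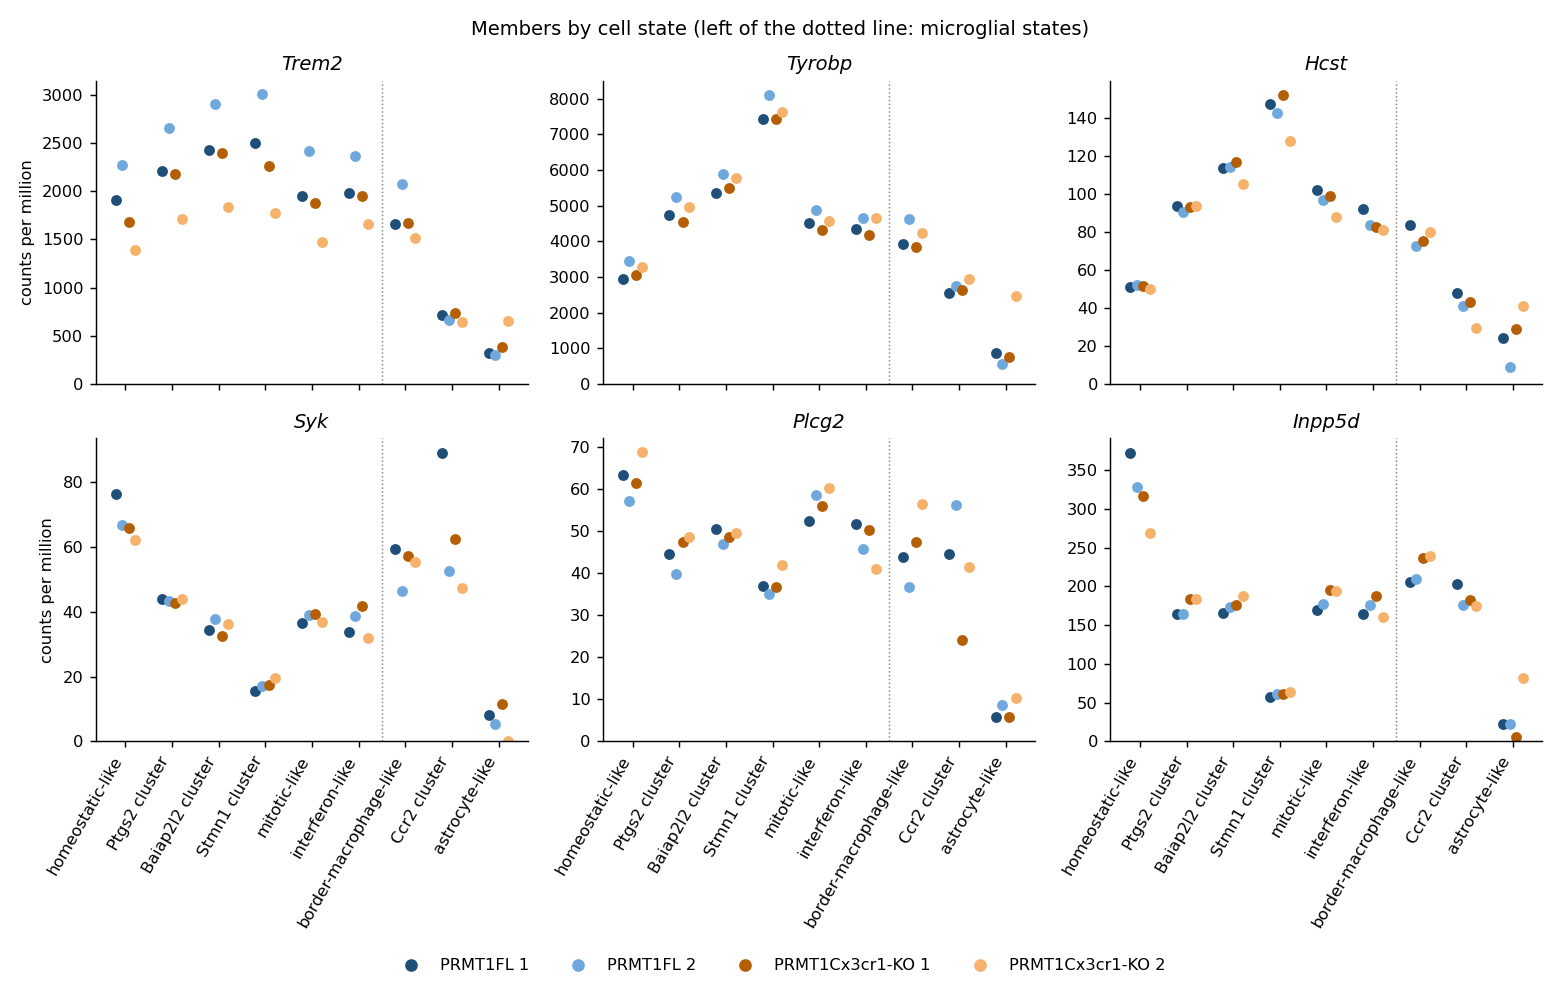
CPM of each gene in the summed cells of each mouse and cluster, with microglial states left of the dotted line and other cells right of it; each point is 1 mouse. Among the microglial states Tyrobp and Hcst are highest, and Syk and Inpp5d lowest, in the Stmn1 cluster, and Trem2 stays between 1393 and 3008 CPM in all of them.

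Outside microglia, border-macrophage-like cells (357 cells, led by Lyve1, Mrc1 and F13a1) held 1657.5 and 2071 CPM of Trem2 in PRMT1FL mice and 1672 and 1513 CPM in PRMT1Cx3cr1-KO mice, so the genotypes overlapped. The Ccr2 cluster (286 cells, led by H2-Eb1, Ccr2 and Mgl2) held 645 to 739 CPM of Trem2 and 2538 to 2949 CPM of Tyrobp. Astrocyte-like cells, which also carried endothelial and oligodendrocyte markers, held 298 to 655 CPM of Trem2. Without marked doublets they held 264 and 210 CPM in PRMT1FL mice and 383 and 655 CPM in PRMT1Cx3cr1-KO mice. The 655 CPM rested on 64 UMIs. Where this RNA came from was not tested, so the values set no level for other clusters.

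Within single states the genotype difference of Trem2 was called in 2 of 6. In homeostatic-like cells Trem2 was at 1905 and 2269 CPM in PRMT1FL mice and at 1681 and 1393 CPM in PRMT1Cx3cr1-KO mice. It fell by a log2 difference of -0.44 (SE 0.12, edgeR adjusted p = 0.0190), in a state where 19.6% of 11566 genes were called. In the Stmn1 cluster it was at 2503 and 3008 CPM against 2267 and 1771 CPM. It fell there by a log2 difference of -0.56 (SE 0.13, edgeR adjusted p = 0.0362), where 3.76% of 10205 genes were called. The 4 haemoglobin genes, seen almost only in PRMT1FL mice, had a median log2 ratio of 4.397 in this cluster to all other cells. None was found in at least 10% of its cells, and their part was not tested. In the other 4 states Trem2 had log2 differences of -0.42 to -0.29 with edgeR adjusted p-values of 0.213 to 0.321. There the share of genes called was 1.46% in the Baiap2l2 cluster, 1.94% in the Ptgs2 cluster, 0.332% in mitotic-like cells and 1.11% in interferon-like cells. Both PRMT1Cx3cr1-KO mice lay below both PRMT1FL mice in all 6 states, as did 15.5% of the genes tested in the Baiap2l2 cluster, 29.9% in homeostatic-like cells, 15.9% in the Ptgs2 cluster, 16.2% in mitotic-like cells, 16.9% in interferon-like cells and 11.9% in the Stmn1 cluster. The states come from the same 4 mice and are not independent of each other.

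These calls rested on single mice. Without the second PRMT1FL mouse neither state was called (edgeR adjusted p = 0.191 in homeostatic-like cells and 0.190 in the Stmn1 cluster), and without the second PRMT1Cx3cr1-KO mouse the homeostatic-like call was lost (0.122). Without the first PRMT1Cx3cr1-KO mouse Trem2 was called in all 6 states, at log2 differences of -0.80 to -0.45. DESeq2 kept the call in homeostatic-like cells and lost it in the Stmn1 cluster, where its adjusted p was 0.541. The test of whether a state differed from the other microglia in its genotype difference called Trem2 in none of the 6 states (edgeR adjusted p = 0.347 to 0.984). It called 0.716% of genes in the Baiap2l2 cluster, 2.38% in the Ptgs2 cluster and 1.23% in mitotic-like cells. The largest such values were 0.15 in interferon-like cells (edgeR adjusted p = 0.347, 0.166% of genes called) and -0.14 in the Stmn1 cluster (edgeR adjusted p = 0.406, 0.306% of genes called). With 1 mouse left out Trem2 passed that test in 2 cases of opposite sign, from fits with 1 PRMT1Cx3cr1-KO mouse and no spread within that genotype. The values were -0.17 in the Stmn1 cluster without the first PRMT1Cx3cr1-KO mouse and 0.09 in the Baiap2l2 cluster without the second.

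With all 4 mice, the test of a state against the other microglia called Inpp5d in homeostatic-like cells and no other of the 36 combinations of gene and state. This call was lost in 3 of the 4 fits that left out 1 mouse. In homeostatic-like cells it was at 373 and 329 CPM in PRMT1FL mice and at 317 and 269 CPM in PRMT1Cx3cr1-KO mice, and in the other microglia at 152 and 157 CPM against 170 and 170 CPM. Inside the state the CPM of the PRMT1Cx3cr1-KO mice were lower, as for 29.9% of genes tested there, and outside it higher, as for 38.5% of genes in all microglia, before the TMM scaling that takes out the shift of the median gene. The ratio of inside to outside was 2.45 and 2.10 in PRMT1FL mice against 1.86 and 1.58 with PRMT1 deleted. The log2 difference between these changes was -0.32 (SE 0.08, 95% interval -0.50 to -0.14, edgeR adjusted p = 0.0190), in a test that called 14.2% of 13537 genes. Within homeostatic-like cells alone the log2 difference was -0.26 (SE 0.10) and missed the threshold (edgeR adjusted p = 0.0895). In the finer clustering, Inpp5d overlapped between genotypes in the Txnip cluster, at 383 and 331 CPM against 362 and 299 CPM (PRMT1FL first). So it did in the shallow B430010I23Rik cluster (median 1358 UMIs), at 548 and 507 CPM against 572 and 492 CPM. Both had Crybb1 among their first 10 genes. A Gdf15 cluster held 33 and 23 PRMT1FL cells against 442 and 407 PRMT1Cx3cr1-KO cells. There Inpp5d was at 333 and 229 CPM against 261 and 231 CPM. The part of cell mix was not tested. The state difference was lost without the first PRMT1FL mouse (-0.22, edgeR adjusted p = 0.320), without the second (-0.42, 0.0674) and without the second PRMT1Cx3cr1-KO mouse (-0.21, 0.116). With 1 mouse left out other calls appeared in the Baiap2l2 cluster, from fits with 1 PRMT1Cx3cr1-KO mouse and no spread within that genotype. Tyrobp was at 0.06 without the first PRMT1Cx3cr1-KO mouse and 0.15 without the second, and Inpp5d at 0.15 without the first.

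**Figure D4:**
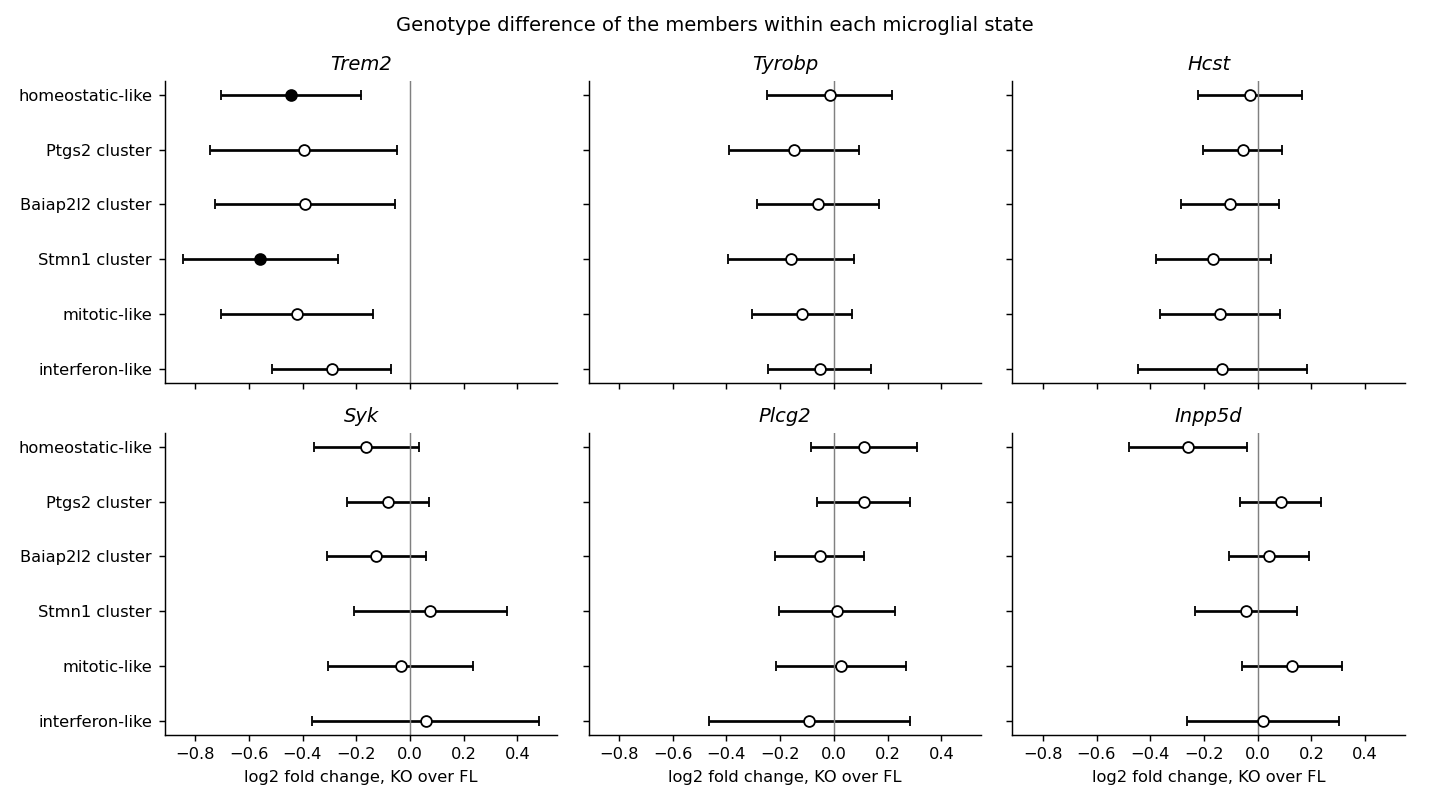
Log2 fold change of each gene, KO (PRMT1Cx3cr1-KO) over FL (PRMT1FL), within each microglial state with its 95% interval; filled points passed an adjusted p of 0.05. Trem2 lies below 0 in all 6 states and is filled in 2, and Inpp5d lies at -0.26 in homeostatic-like cells and between -0.04 and 0.13 elsewhere.

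None of the other 5 genes was called within a state. The log2 differences for Tyrobp, Hcst, Syk and Plcg2 ran from -0.17 to 0.11.

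The rest of the pathway was read from a list of 108 genes in 11 role groups, of which 106 were in the matrices and 102 were tested. Of these, 2 were called, both lower, beside 0.116% of all genes called lower and 0.377% called higher. Siglech, a receptor that couples to DAP12, fell from 415 and 434 CPM to 291 and 274 CPM (log2 difference -0.66, SE 0.08, edgeR adjusted p = 0.0392). Ccl6, a chemokine of activated microglia, fell from 1013 and 1133 CPM to 706 and 730 CPM (log2 difference -0.65, SE 0.08, edgeR adjusted p = 0.0460). Neither was called when a PRMT1FL mouse was left out, with edgeR adjusted p-values of 0.445 and 0.496 for Ccl6 and 0.474 and 0.496 for Siglech. At an unadjusted p under 0.05, 14 of the 102 were higher and 20 lower, beside 1371 higher and 1353 lower of all 13803 genes, and their median log2 difference was -0.04 beside -0.01 for all genes tested.

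The group that leaned furthest down was the set of genes that depend on TREM2 in disease-associated microglia, of which 11 were tested. Their median log2 difference was -0.50, with 10 of 11 negative and 8 lower at an unadjusted p under 0.05, although only Ccl6 was called. Over all 13803 genes tested, 7051 were negative and 1353 lower at that p. Cst7, a cysteine protease inhibitor, was at 1771 and 1688 CPM in PRMT1FL mice and at 1185 and 1007 CPM in PRMT1Cx3cr1-KO mice (log2 difference -0.73, edgeR adjusted p = 0.0578). It passed the threshold under DESeq2 and 9 other settings. Ctsl, a lysosomal protease, was at 2915 and 3026 CPM against 2327 and 2010 CPM (-0.52, edgeR adjusted p = 0.0900). The member with the opposite sign, Lilrb4a, an inhibitory receptor, was at 99.8 and 102 CPM against 127 and 157 CPM. Clec7a of this list and Trem6l of the receptor list were not analysed here.

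The other receptors of the TREM family all had positive values, and none was called. They lie within chr17:48232768-48367176, the stretch that also holds Trem2. Treml4 had 24 and 19 UMIs in PRMT1FL microglia and 195 and 972 in PRMT1Cx3cr1-KO microglia (log2 difference 4.49, SE 0.79, edgeR adjusted p = 0.0796). Trem1, an activating receptor that also uses DAP12, had 127 and 52 UMIs against 193 and 234 (1.08, edgeR adjusted p = 0.140). Trem3 had 15 and 20 against 28 and 68 UMIs, so Trem3, and Treml4 in PRMT1FL mice, rest on few molecules. In the same sums border macrophage genes were at 33.1 to 33.3 CPM in PRMT1FL mice and 61.6 to 164 CPM in PRMT1Cx3cr1-KO mice, and monocyte genes at 158 to 203 CPM and 297 to 306 CPM. These sums include the Cd38 cluster. With that cluster left out, none of the 102 pathway genes was called higher, and the part of such cells was not otherwise tested.

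Among the remaining groups none was called. Dok3, an adaptor that restrains ITAM signals, had the smallest p of the scaffolds, at 9.06 and 10.0 CPM in PRMT1FL mice and 14.8 and 20.4 CPM in PRMT1Cx3cr1-KO mice (log2 difference 0.81, edgeR adjusted p = 0.0797). Pilra, an inhibitory receptor, was at 28.9 and 34.1 CPM against 41.3 and 51.8 CPM (0.49, edgeR adjusted p = 0.113). The kinase gene Src was at 6.41 and 5.57 CPM against 5.07 and 4.04 CPM (-0.47), and Pik3cd, the catalytic PI3K subunit of leukocytes, at 44.6 and 44.3 CPM against 39.0 and 39.2 CPM (-0.26). Itpr3, a calcium release channel, had a log2 difference of 0.37, Dock2, a Rac activator, -0.25 and Adam10, a protease that sheds TREM2, 0.17. Clu, an apolipoprotein made mainly by astrocytes, had the smallest p of the ligands (-1.34, edgeR adjusted p = 0.326) from 160 and 59 UMIs in the PRMT1FL mice against 74 and 19 in the others. Apoe, a lipoprotein ligand of TREM2, was at 37541 and 33259 CPM against 36791 and 33746 CPM, with the genotypes overlapping (log2 difference -0.08, edgeR adjusted p = 0.758).

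**Figure D5:**
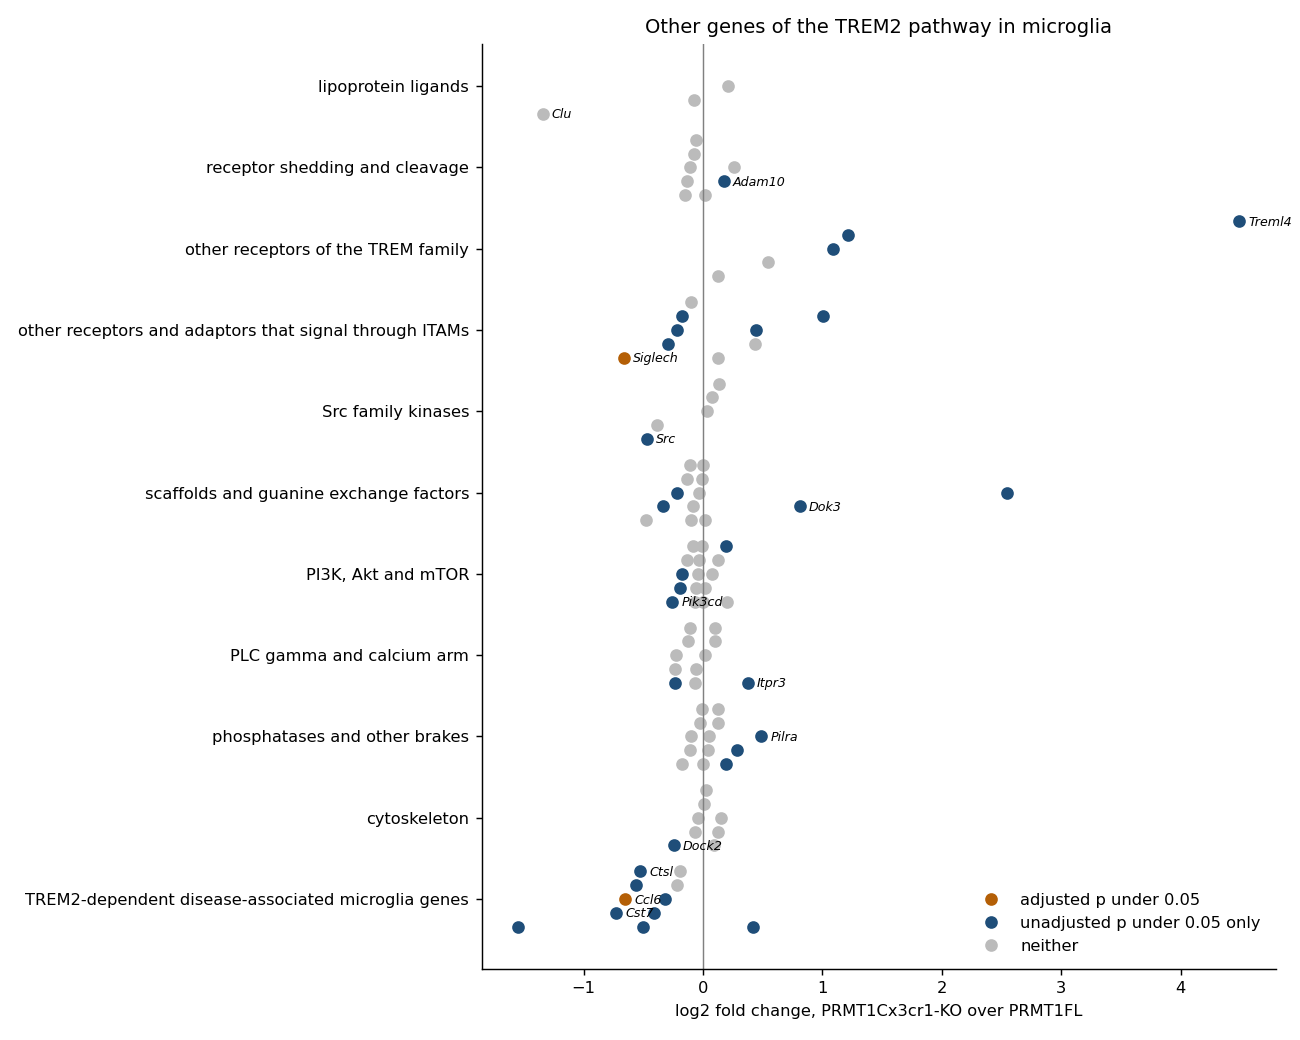
Log2 fold change, PRMT1Cx3cr1-KO over PRMT1FL, in summed microglia of the 102 other pathway genes tested, 1 point per gene and 1 row per role, with the named genes labelled; colours mark the genes past an adjusted or an unadjusted p of 0.05. Siglech and Ccl6 are the 2 genes past the adjusted threshold, and 10 of 11 genes in the lowest row lie below 0.

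The genes whose level ran most like that of Trem2 over the 24 sums of 4 mice and 6 states were Gm2a, which helps degrade gangliosides in the lysosome (Pearson r = 0.94), B2m (0.85), Timp2 (0.83), C1qc (0.83) and H2-Aa (0.82), out of 7289 genes with a mean of at least 10 CPM. This is a description: the 24 points share mice, libraries and depth. Tyrobp gave 0.51 and ranked 203, and Hcst gave 0.51 and ranked 201. Syk gave -0.37, Inpp5d -0.39 and Plcg2 -0.57. Across single microglia thinned to 1000 UMIs, Trem2 and Tyrobp correlated at 0.14 to 0.17 within a mouse, a weak relation in sparse counts.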

How the data were processed

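Cells were sorted for CD11b and CD45, and 3′ droplet libraries were made from 4 mice, 2 per genotype. Per the labels, reads were aligned to mm10 with Cell Ranger 3.1.0, and the submitters' processing notes also name Seurat 3.2.0 and Scanpy 1.5.2. The authors deposited raw UMI counts per gene and barcode, without normalization. Barcodes were kept where 200 to 6000 genes were detected and mitochondrial UMIs made up no more than 10%. They were clustered in Scanpy 1.11.5 (2000 variable genes, 20 principal components, 15 neighbours, leiden resolution 0.4) after 856 genes had been left out. Left out were the 749 genes that differed between genotypes over all cells, the signalling genes described here and the genes of the pathway list. Clusters were named from fixed markers or by their leading gene. Barcodes resembling simulated doublets were marked at the rate expected from cell number, since the automatic threshold marked at most 2 per library, and were kept in the main analysis. Counts were summed per mouse over microglia and over each state with at least 20 cells in every mouse, and CPM were computed from the sums.

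Differences were tested with edgeR 4.0.16 in R 4.3.3 (TMM, filterByExpr, quasi-likelihood F-test, Benjamini-Hochberg over all genes tested), without a block. DESeq2 1.42.0 and limma 3.58.1 were alternatives. State differences used 2 sums per mouse with the mouse as a term. Log2 differences are PRMT1Cx3cr1-KO minus PRMT1FL. With 1 library per mouse, p-values of the genotype tests rest on the spread between 2 mice per genotype, which edgeR estimates with help from other genes. Those of the state differences rest on how the change from inside to outside a state varies between mice of a genotype. With 1 mouse left out, 1 genotype holds a single mouse and gives no such spread. Scripts were tested on simulated data. The 6 genes, the pathway list and the markers were chosen with earlier results of these data known. Other pathway genes were named where called, then by smallest unadjusted p until 6 were named, plus the smallest in each role group; Lilrb4a, Apoe, Trem1, Trem3 and Itgax were named after their values were seen. The 5 genes most like Trem2 were taken by Pearson r of log2 CPM with 1 added. Levels are not compared between genes.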

Additional observations from a re-analysis of the deposited data

Results flagged for a closer look

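The genotype difference of Inpp5d in homeostatic-like cells differed from that in the other microglia by -0.32 on the log2 scale (edgeR adjusted p = 0.0190), and it was picked out because this test of the difference itself passed the threshold. In CPM the PRMT1Cx3cr1-KO mice were lower inside the state and higher outside it, and the call was lost in 3 of the 4 fits that left out 1 mouse. The same test called 14.2% of all genes in this state, so a call was common there. In the finer clustering Inpp5d overlapped between genotypes in the clusters led by Txnip and by B430010I23Rik. In the low-depth cluster set aside, which also had high homeostatic markers, its mean was higher in PRMT1Cx3cr1-KO mice (566 against 451 CPM). The part of cell mix was not tested. Groups of 2 mice are too small for a check of outlying samples.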

How the results depend on the processing

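Each value was recomputed under other tools, scalings, filters and sets of cells or mice, and under 2 settings chosen after seeing the data, which left the Stmn1 cluster or the Cd38 cluster out of the sums and changed no call of the 6 genes. Trem2 was also called by DESeq2 (-0.44) and without the filter on low counts (-0.44), and ran from -0.64 to -0.26 with 1 mouse left out. Plcg2 ran from -0.0059 to 0.0947 and Inpp5d from -0.0400 to 0.0608 with 1 mouse left out, so both changed sign. The cause was not tested. The number of genes called, 68, became 719 with DESeq2, 178 without TMM, 1734 without the filter, 749 over all cells, 481 with equal state shares, 128 at the higher resolution and 107 with the replicate block, and ran from 4 to 2637 with 1 mouse left out. The 2 pathway genes called became 15, 4, 28, 5, 7 and, with the replicate block, 5, in the same order without the higher resolution, and 0 to 38 with 1 mouse left out. Of the 36 gene and state combinations, 2 were called, against 1 with DESeq2, 4 with the replicate block and 0 to 8 with 1 mouse left out. The 1 state by genotype call became 0 to 4 with 1 mouse left out.

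The replicate numbers share no animal, and deviations of same-numbered mice correlated at -0.01 over genes, so the block is not a pairing; it added Trem2 in mitotic-like cells and Inpp5d in homeostatic-like cells to the state calls. Shares with a UMI moved for Trem2 from -7.05 percentage points to -0.62 without thinning and -2.69 at 2000 UMIs, and for Plcg2 to 2.26 without thinning. The ratio of highest to lowest state at the higher resolution was 1.51 for Trem2, 3.24 for Tyrobp, 4.50 for Hcst, 5.97 for Syk, 2.36 for Plcg2 and 9.004 for Inpp5d, and without marked doublets 2.60 for Tyrobp, 3.11 for Hcst and 1.70 for Plcg2. With 2 mice per genotype, 1 mouse decides most calls.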
